A study of Mus musculus with 6 samples.

Results

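The genes that write and erase DNA methylation were measured as 10 transcripts of the mouse B cell lymphoma line A20, out of 27179 gene identifiers in the count files. The 10 genes were Tet1, Tet2, Tet3, Dnmt1, Dnmt3a, Dnmt3b, Dnmt3l, Uhrf1, Tdg and Mbd4, matched by their Entrez identifiers, and all 10 were among the 12430 genes that passed the filter on low counts. RNA-seq of polyadenylated RNA was available for 3 groups of 2 replicates, and every cell came from the same BALB/c-derived line. Wild-type A20 cells carried no activation system. Control sgRNA cells carried TETact-v3 and a guide without a target, and Cd4 sgRNA cells carried TETact-v3 and a guide to the Cd4 promoter, both taken on day 7 after the guide was transduced. TETact-v3 is a lentiviral set. It has a nuclease-dead Cas9 with a peptide array that recruits the catalytic domain of TET1 through a fused antibody fragment. It also has an MS2 coat protein fused to the activator parts of p65 and HSF1. The control sgRNA cells therefore shared the TET1 catalytic domain with the Cd4 sgRNA cells, and wild-type cells differed from both by all of the vectors at once.

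Methylation of cytosine in CpG dinucleotides is laid down by DNMT3A and DNMT3B, and copied to the new strand after replication by DNMT1, which UHRF1 guides to half-methylated sites. TET1, TET2 and TET3 oxidise methylcytosine with 2-oxoglutarate and iron as co-factors. TDG removes the oxidised bases and base excision repair puts cytosine back, while MBD4 removes thymine from mismatches left by deaminated methylcytosine. DNMT3L has no catalytic activity of its own, assists the DNMT3 enzymes and is best known from germ cells. In B cells this machinery takes part in germinal centre and plasma cell differentiation, and TET2 and DNMT3A are recurrently mutated in blood cancers.

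Total counts ranged from 23194920 in wild-type replicate 2 to 121623410 in control sgRNA replicate 1. Cd4 itself, the targeted gene, had 30959 and 40422 counts in the Cd4 sgRNA libraries and between 17 and 127 in the other 4, which matched the labels. Control sgRNA replicate 2 stood apart. Its mitochondrial share was 11.5% against 2.65% to 6.90% in the other 5 libraries, and the median absolute log2 difference between replicates was 0.275 in the control sgRNA group against 0.0839 in wild type and 0.0861 in the Cd4 sgRNA group. All 9 B cell markers (Cd79a, Pax5 and others) were above the floor of 3 counts, with a summed level of 8951 and 9068 CPM in wild type, 5808 and 8687 CPM in the control sgRNA cells, and 5641 and 5034 CPM in the Cd4 sgRNA cells. CPM relates a gene's counts to the library total after TMM scaling. Of 7 T cell markers other than Cd4, 6 were at or under 3 counts in every library, and 4 of these (Cd3d, Cd3e, Cd8b1 and Trac) never had more than 1 count. Summed myeloid markers lay between 0.397 and 2.40 CPM, with Cd14 at 0 throughout. Epcam, the one detected gene of 5 fibroblast and epithelial markers by the filter, brought that sum to 15.9 and 17.5 CPM for wild type, 25.9 and 36.7 CPM for control sgRNA, and 14.1 and 13.3 CPM for Cd4 sgRNA. Erythroid markers summed to 22.4 and 21.8 CPM in wild type and 1.86 to 3.26 CPM in the 4 TETact libraries. The part of these shifts in the results below was not tested.

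The promoters of the 10 genes differed widely in the dinucleotide on which their products act. All 10 matched the RefSeq promoter table of GRCm38.p6, the build the counts are based on, with 17 annotated starts. CG dinucleotides (letters CG, which read the same on both strands) were counted in the 250 bases before these starts. Their number ran from 2 before the outermost start of Dnmt1 to 51 before the only start listed for Tet2. The median was 6 over 32841 windows of 27018 genes. As many as 51 were found in 0.067% of all windows. Dnmt3l had 5, 4 and 3 in its 3 windows, and at least 5 were present in 55.6% of all windows. For Tet2, Tet3 and Dnmt3a all listed windows lie inside the annotated span of the gene, so starts further out may be missing. For 8 of the 10 genes every listed window was above the median. Dnmt1 and Dnmt3l were the exceptions.

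**Figure D1:**
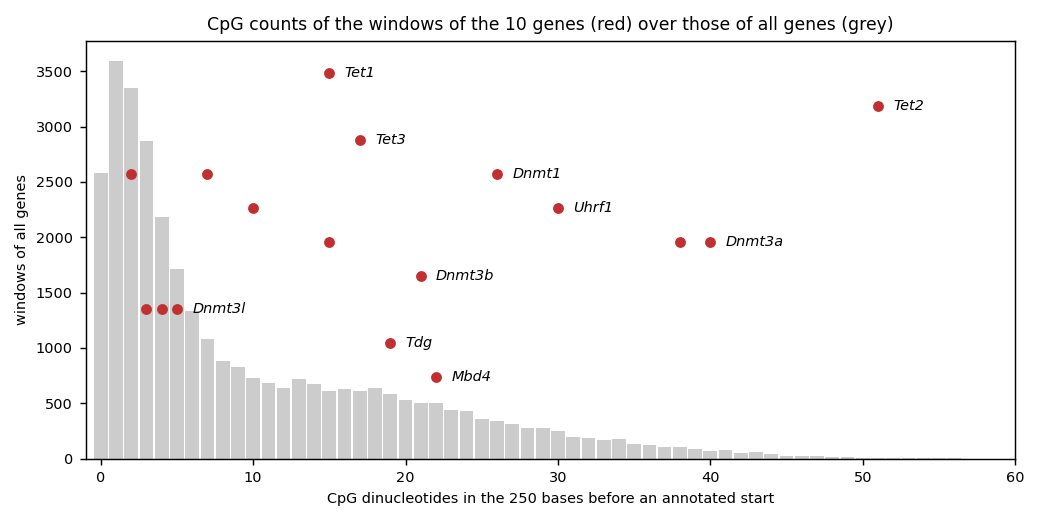
Number of CG dinucleotides in the 250 bases before each annotated start (x axis) for the 10 genes (red points, 1 row per gene, height without meaning) over the number of windows of all genes (grey bars, y axis). Tet2, at 51, lies in the far tail, and all 3 windows of Dnmt3l lie at 5 or fewer, below the median of 6.

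Stretches upstream of 3 genes are shown because they span the range of the values that follow: Tet1, which had the largest called change, Uhrf1, the most abundant per length, and Dnmt3l, one of the rarest. Each is given 5′ to 3′ on the gene's own strand, outside the annotated span of the gene, with every CG in capitals. They lie at chr10:62887470-62887574 (minus strand, 7 CG in 105 bases), chr17:56303087-56303336 (plus strand, 10 CG in 250 bases) and chr10:78042037-78042286 (plus strand, 5 CG in 250 bases). Uhrf1 has another window, before its inner start, at chr17:56304063-56304312 within the annotated span of the gene. That window, not printed, had 30 CG, and at least 30 were present in 5.94% of all windows.
Tet1: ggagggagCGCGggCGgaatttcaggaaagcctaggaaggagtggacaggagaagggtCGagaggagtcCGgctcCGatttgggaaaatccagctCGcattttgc
Uhrf1: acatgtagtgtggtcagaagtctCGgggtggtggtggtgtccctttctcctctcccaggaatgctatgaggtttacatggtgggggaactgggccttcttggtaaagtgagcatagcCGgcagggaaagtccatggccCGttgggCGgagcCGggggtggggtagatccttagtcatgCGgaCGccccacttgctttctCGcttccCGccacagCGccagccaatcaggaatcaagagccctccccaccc
Dnmt3l: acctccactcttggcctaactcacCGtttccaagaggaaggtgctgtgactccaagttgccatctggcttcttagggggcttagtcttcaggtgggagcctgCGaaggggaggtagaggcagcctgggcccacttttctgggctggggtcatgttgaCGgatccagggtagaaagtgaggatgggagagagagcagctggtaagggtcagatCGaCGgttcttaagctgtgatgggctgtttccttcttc
A count of CG says nothing of their methylation, which was not analysed here.

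Levels are compared between genes per length, as TPM, which divides counts by gene length before scaling each library to a fixed sum. In wild-type cells Uhrf1 (125.8 ± 5.66 TPM, mean ± SD, n = 2 here and throughout) and Dnmt1 (90.5 ± 1.63 TPM) led, and stood at the 90.1 and 86.1 percentiles of the 15203 genes detected there. Mbd4 (18.1 ± 1.21 TPM), Dnmt3a (16.4 ± 0.34 TPM) and Tdg (13.7 ± 1.03 TPM) followed. Tet3 (10.2 ± 0.208 TPM) and Dnmt3b (5.47 ± 0.439 TPM) came next, and Tet2 (0.913 ± 0.102 TPM), Dnmt3l (0.213 ± 0.113 TPM) and Tet1 (0.0695 ± 0.031 TPM) were last. The replicates of Mbd4 and Dnmt3a did not overlap in this order, with 17.2 and 18.9 TPM against 16.6 and 16.2 TPM, but the gap was smaller than the difference between the Mbd4 replicates. With control sgRNA the order was Uhrf1 (167.2 ± 37.9 TPM), Dnmt1 (135.6 ± 15.2 TPM), Dnmt3a (35.4 ± 2.43 TPM), Mbd4 (22.7 ± 0.211 TPM), Tdg (18.8 ± 3.22 TPM), Tet3 (8.54 ± 0.343 TPM), Dnmt3b (7.35 ± 1.54 TPM), Tet2 (2.23 ± 0.68 TPM), Dnmt3l (0.63 ± 0.0991 TPM) and Tet1 (0.302 ± 0.0316 TPM). The replicates of Uhrf1 and Dnmt1 overlapped in this group, and so did those of Tet3 and Dnmt3b. With Cd4 sgRNA, Tdg (19.7 ± 1.73 TPM) stood before Mbd4 (18.0 ± 0.246 TPM), and the other 8 genes kept the order of the control sgRNA group. Tet3 and Dnmt3b overlapped here too, as did Dnmt3l and Tet1. Dnmt3a stood below Mbd4 in wild type and above it in both TETact groups.

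**Figure D2:**
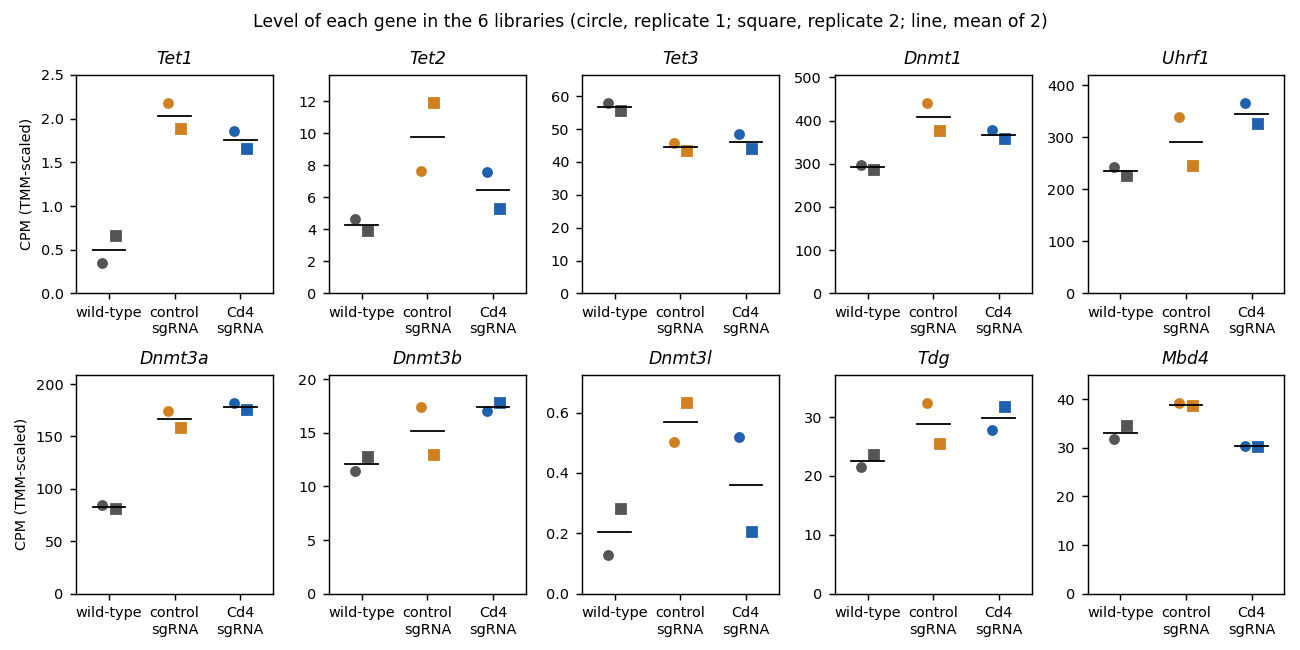
CPM of each of the 10 genes (y axis, from 0, a separate scale per panel) in wild-type, control sgRNA and Cd4 sgRNA cells (x axis), with circles for replicate 1, squares for replicate 2 and a line at the mean of 2. Neither TETact group overlaps wild type, apart from Dnmt3l with Cd4 sgRNA. The same held for 67.1% (control sgRNA) and 79.8% (Cd4 sgRNA) of all genes. The control sgRNA replicates are far apart for Tet2, Uhrf1, Dnmt3b and Tdg.

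Control sgRNA and wild-type cells were compared first, which asks what came with the TETact vectors without a target. Of the 10 genes, 4 rose (Tet1, Tet2, Dnmt1 and Dnmt3a) and 1 fell (Tet3) at an adjusted p under 0.05, where 28.0% of all 12430 genes passed, 14.5% higher and 13.5% lower. The median log2 fold change of the 10 was 0.42, against -0.00095 over all genes tested. The 2 groups did not overlap for any of the 10, which was so for 67.1% of all genes. Unless another tool is named, an adjusted p, by the Benjamini-Hochberg method over the whole set of tested genes, comes from the quasi-likelihood test of edgeR, and a single-gene permutation of 2 against 2 libraries could not go below 0.333. Tet2, Tet3 and Dnmt1 lost their calls in the fits without wild-type replicate 1, wild-type replicate 2, Cd4 sgRNA replicate 1 or Cd4 sgRNA replicate 2, at adjusted p-values of 0.059 to 0.29, with log2 fold changes of the same sign.

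Tet1, whose product starts the oxidation of methylcytosine, had 242 and 152 counts with control sgRNA against 16 and 14 in wild type, that is 2.18 and 1.88 CPM against 0.344 and 0.654 CPM. Both control sgRNA libraries were above both wild-type libraries. The log2 fold change was 2.19 (SE 0.332, adjusted p = 0.0072 by edgeR), a 4.55-fold rise with a 95% interval on the log2 scale of 1.38 to 2.99. The gene is at chr10:62804570-62887469 on GRCm38.p6. The counts cover the whole gene, so reads of the catalytic domain in the vector, where they align to mouse Tet1, and reads of the endogenous gene cannot be told apart. Tet1 lost its call without wild-type replicate 1 and also without wild-type replicate 2, at log2 fold changes of 1.66 and 2.58. Rela and Hsf1, the mouse genes of the other parts of the activator, had log2 fold changes of -0.08 (SE 0.0805) and 0.02 (SE 0.0955) and did not pass the test.

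Tet2 (chr3:133463677-133545136), the TET gene most often mutated in blood cancers, had 4.65 and 3.92 CPM in wild type and 7.66 and 11.9 CPM with control sgRNA. The control sgRNA replicates differed by 43.2% of their mean, and both were above wild type. The log2 fold change was 1.16 (SE 0.296, adjusted p = 0.034 by edgeR). The call rested on the test, since voomLmFit of limma gave an adjusted p of 0.063 for a log2 fold change of 1.10, and the fit with the replicate number as a block gave 0.051.

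Tet3 (chr6:83362373-83457208), the most abundant TET transcript in A20, had 57.9 and 55.6 CPM in wild type and 45.8 and 43.3 CPM with control sgRNA, and was the one gene of the 10 that fell. Its log2 fold change was -0.35 (SE 0.0939, adjusted p = 0.037 by edgeR), with an interval of -0.58 to -0.12. Scaled by library size only it was -0.31, with an adjusted p of 0.050.

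In TPM, the sum of the 3 TET transcripts differed between groups by less than the Cd4 sgRNA replicates did, and its make-up shifted. It was 11.2 ± 0.276 TPM in wild type, 11.1 ± 0.304 TPM with control sgRNA and 10.8 ± 1.11 TPM with Cd4 sgRNA. Tet3 made up 91.2% ± 0.417 of that sum in wild type, 77.2% ± 5.23 with control sgRNA and 83.8% ± 2.13 with Cd4 sgRNA. Tet2 had 8.67% and 7.67% in wild type, 16.1% and 24.0% in the control sgRNA libraries, and 15.3% and 12.2% in the Cd4 sgRNA libraries, and Tet1 had 0.626% ± 0.293, 2.73% ± 0.361 and 2.47% ± 0.0262 in the order of the groups above. The share of Tet3 was higher in both wild-type libraries than in any TETact library. These shares carry no test. Sums in TPM carry no TMM scaling, so their comparison between groups depends on the scaling. Rela had 96.7, 91.3 and 97.3 CPM but 69.8, 70.6 and 76.4 TPM in wild-type, control sgRNA and Cd4 sgRNA cells. Whether the TET sum was alike with TMM scaling was not tested.

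Dnmt3a (chr12:3801559-3914443), the main de novo methyltransferase of differentiated blood cells, had the smallest p of the 10. Its level was 84.3 and 80.9 CPM in wild type and 174.6 and 158.6 CPM with control sgRNA, with no overlap. The log2 fold change was 1.01 (SE 0.09, adjusted p = 0.0018 by edgeR), or 2.02-fold. It lost the call in 1 alternative, without wild-type replicate 1, where the log2 fold change was 1.07 and the adjusted p 0.052. Dnmt3aos, an RNA transcribed from the same locus, had at most 7 counts in any library.

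Dnmt3b (chr2:153649411-153687730), the second de novo enzyme, had 11.5 and 12.7 CPM in wild type and 17.4 and 12.9 CPM with control sgRNA. One control sgRNA library was close to wild type, and the log2 fold change of 0.34 (interval -0.08 to 0.76) did not pass the test, with an adjusted p of 0.18 by edgeR. Dnmt3l (chr10:78042287-78063622) had 6 counts in each wild-type library and 56 and 51 with control sgRNA. Its levels were 0.129 and 0.280 CPM against 0.504 and 0.630 CPM, the log2 fold change of 1.64 had an interval of 0.25 to 3.04, and the adjusted p was 0.079 by edgeR. At 6 counts the wild-type level was near the floor of 3 counts, which stood at 0.0646 and 0.140 CPM in these libraries. Aire, which overlaps Dnmt3l, had 0 to 20 counts.

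Dnmt1 (chr9:20907206-20959888), the maintenance methyltransferase, rose from 296.9 and 286.1 CPM in wild type to 440.3 and 375.9 CPM with control sgRNA. The log2 fold change was 0.49 (SE 0.105, adjusted p = 0.02 by edgeR), or 1.40-fold. Uhrf1 (chr17:56303337-56323486), its guide to half-methylated DNA, had 243.6 and 226.0 CPM in wild type and 338.2 and 244.8 CPM with control sgRNA. Replicate 2 of the control sgRNA group was close to wild-type replicate 1, and the log2 fold change of 0.31 (interval -0.09 to 0.71) did not pass the test, with an adjusted p of 0.20 by edgeR. Uhrf1 had a log2 fold change of 0.081 (adjusted p = 0.31 by edgeR) without control sgRNA replicate 1 and of 0.53 without replicate 2, the library with the high mitochondrial share. Without replicate 2 all 10 genes passed the test, 9 higher and 1 lower, but so did 59.9% of all genes. The lone control sgRNA library is then assumed to vary like the tighter groups.

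In TPM, without TMM scaling, the DNMT total was higher in every TETact library than in wild type. It was 112.5 ± 1.41 TPM in wild type, 179.0 ± 19 TPM with control sgRNA and 171.4 ± 7.21 TPM with Cd4 sgRNA. Dnmt1 made up 80.4% ± 0.431, 75.7% ± 0.424 and 72.3% ± 0.368 of it, and Dnmt3a 14.6% ± 0.12, 19.8% ± 0.757 and 22.5% ± 0.184, in the same order. The TPM ratio of Dnmt3a to Dnmt1 was 0.182 and 0.181 for wild type, 0.254 and 0.270 for control sgRNA, and 0.308 and 0.314 for Cd4 sgRNA. The 3 groups did not overlap, but the ratio carries no test. In CPM, 59.6% to 79.8% of single genes did not overlap between 2 groups. The DNMT total stood at 9.99 and 10.2 times the TET total in wild type and at 14.7 to 17.7 times in the TETact libraries.

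**Figure D3:**
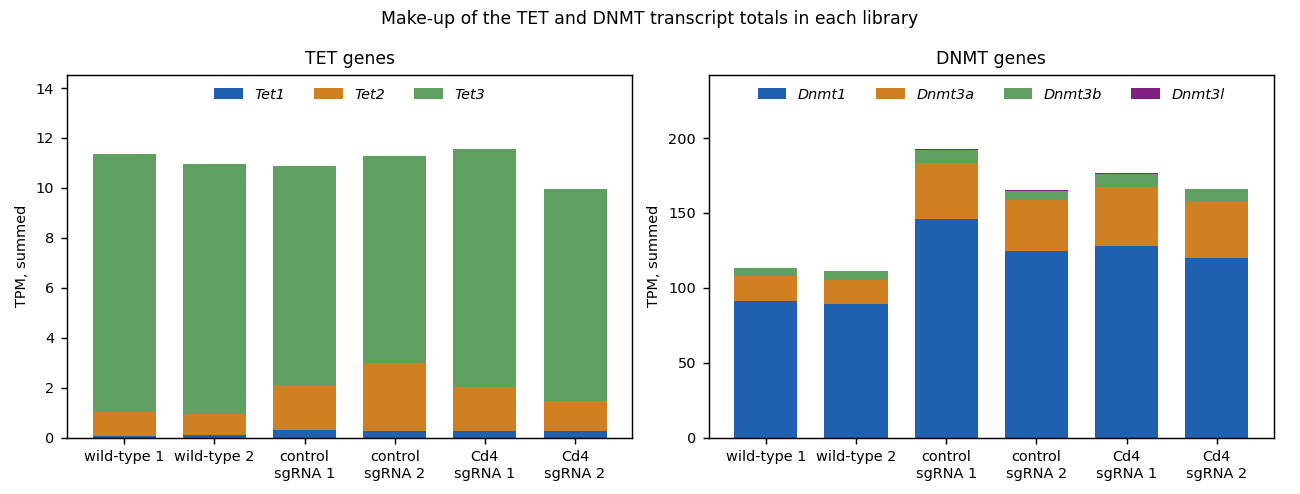
Summed TPM (y axis, from 0, without TMM scaling) of the 3 TET genes (left) and the 4 DNMT genes (right) in each of the 6 libraries, with 1 colour per gene. The TET bars have like heights, between 9.97 and 11.5 TPM, with less Tet3 in the TETact libraries, and the DNMT bars are taller in all 4 TETact libraries than in wild type.

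The glycosylases did not pass the test. Tdg (chr10:82629814-82650799) had 21.5 and 23.6 CPM in wild type and 32.3 and 25.3 CPM with control sgRNA, at a log2 fold change of 0.36 (interval -0.01 to 0.73) and an adjusted p of 0.12 by edgeR. Its counts are uncertain, because 54.2% of the 66-base windows of its coding transcripts, the read length used, occur also in transcripts of other genes, 36.2% in the pseudogene Tdg-ps, and how reads shared between genes were counted is not given in the sources used here. Tdg-ps itself had 307 to 2086 counts. Mbd4 (chr6:115840697-115853400) had 31.7 and 34.5 CPM in wild type and 39.1 and 38.6 CPM with control sgRNA, at a log2 fold change of 0.24, and an adjusted p of 0.099 by edgeR. It overlaps Ift122, which had 21.4 to 28.2 CPM. Of the other genes, Uhrf1 shared 12.7% of its windows, Dnmt3b 8.55% (with Dnmt3c), Mbd4 4.44%, Tet1 0.344% and Dnmt3a 0.239%, and Tet2, Tet3, Dnmt1 and Dnmt3l shared 0. No 2 TET genes had an identical run longer than 20 bases, so reads of 1 TET gene do not match another along their length.

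Cd4 sgRNA and wild-type cells share the wild-type libraries with the comparison above, so the values are given side by side and not as a repeat. Of the 10 genes 2 rose, Tet1 and Dnmt3a, and 0 fell, where 20.5% of all genes passed, 9.84% higher and 10.7% lower. The median log2 fold change of the 10 was 0.54, against 0.0043 over all genes. The groups did not overlap for 9 of the 10, as for 79.8% of all genes. Dnmt3l was the exception.

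Tet1 had 61 and 73 counts with Cd4 sgRNA, or 1.86 and 1.65 CPM, above both wild-type libraries. Its log2 fold change was 1.96 (SE 0.37, adjusted p = 0.018 by edgeR), against 2.19 with control sgRNA. Dnmt3a had 181.6 and 174.9 CPM and a log2 fold change of 1.11 (SE 0.0905, adjusted p = 0.0019 by edgeR), against 1.01 with control sgRNA. Both calls were lost without wild-type replicate 1, at adjusted p-values of 0.22 and 0.054, and that of Tet1 also without wild-type replicate 2 (0.083) or either Cd4 sgRNA library (0.12 and 0.13).

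The other 8 genes did not pass the test. Uhrf1 (365.8 and 324.9 CPM with Cd4 sgRNA) had a log2 fold change of 0.56 (interval 0.16 to 0.95, adjusted p = 0.06 by edgeR), Dnmt1 (377.6 and 357.0 CPM) 0.33 (adjusted p = 0.069), Tet3 (48.4 and 43.8 CPM) -0.30 (adjusted p = 0.07), Dnmt3b (17.0 and 17.7 CPM) 0.53 (adjusted p = 0.081) and Tdg (27.7 and 31.8 CPM) 0.41 (adjusted p = 0.11). Fitted on the Cd4 sgRNA and wild-type libraries alone, 8 of the 10 passed, 7 higher and 1 lower. But so did 7451 of all genes, against 2548 in the fit over 6 libraries. The control sgRNA libraries share in the estimate of the spread of the fit over 6. Tet2 (7.57 and 5.29 CPM) had a log2 fold change of 0.54 with an interval of -0.23 to 1.32, Dnmt3l (17 and 9 counts) 0.92 with an interval of -0.82 to 2.67, and Mbd4 (30.5 and 30.2 CPM) -0.12 with an interval of -0.35 to 0.10.

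Cd4 sgRNA and control sgRNA cells differ in the guide, and this comparison asks what the targeted activation adds. None of the 10 genes passed the test (edgeR), where 0.0724% of all genes did, 0.0241% higher and 0.0483% lower, and 1 of the 10 had an unadjusted p under 0.05, as did 3093 of all 12430 genes. DESeq2 called 1 of the 10, Mbd4, and 1427 of all 12430 genes, with no adjusted p for 1205. The voomLmFit test called 0 of the 10. Its calls over all genes are not given here, so that count is not read as a result about the 10. The groups did not overlap for 4 of the 10 genes (Tet1, Tet2, Dnmt3a and Mbd4), as for 59.6% of all genes, and the median log2 fold change was -0.05. Tet1 had a log2 fold change of -0.23 with an interval of -0.79 to 0.34. Dnmt3a had 0.10 (interval -0.12 to 0.31), Dnmt1 -0.15 (interval -0.40 to 0.10) and Tet3 0.05 (interval -0.18 to 0.28).

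Mbd4 had the smallest p of the 10 here. Its 30.5 and 30.2 CPM with Cd4 sgRNA lay below both control sgRNA libraries, at 39.1 and 38.6 CPM, and the replicates of either group differed by at most 1.27% of their mean. The log2 fold change was -0.36 (SE 0.0906, interval -0.58 to -0.14), with an adjusted p of 0.13 by edgeR and 0.033 by DESeq2. Wild-type Mbd4, at 31.7 and 34.5 CPM, lay between. Tet2 had a log2 fold change of -0.61 with an interval of -1.28 to 0.06, and its control sgRNA replicates, at 7.66 and 11.9 CPM, were far apart.

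**Figure D4:**
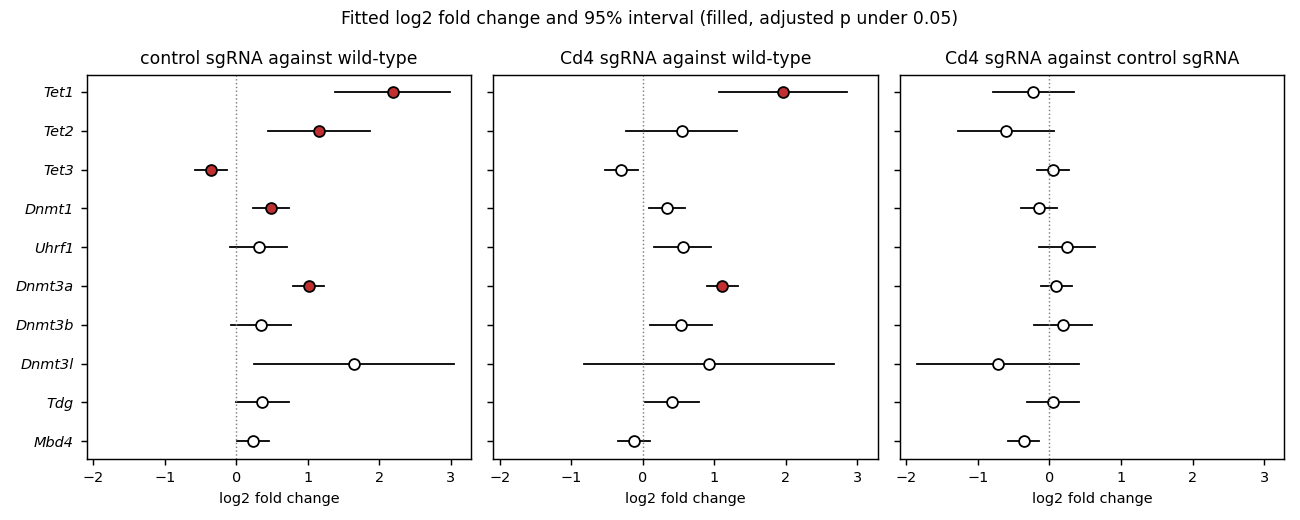
Fitted log2 fold change (x axis) of each of the 10 genes (y axis) with its 95% interval in the 3 comparisons, filled where the adjusted p was under 0.05. Filled points are Tet1, Tet2, Tet3, Dnmt1 and Dnmt3a in control sgRNA against wild-type cells, Tet1 and Dnmt3a in Cd4 sgRNA against wild-type cells, and 0 of 10 in the panel on the right.

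Genes that work with the 10 were taken as lists by role, to be read against the 28.0% of all genes called with control sgRNA and the 20.5% called with Cd4 sgRNA. Without wild-type replicate 1, 0 genes of the 7 lists passed in either comparison with wild type, where 0.91% and 0.635% of all genes did, so every list call named here was lost. Among partners of TET and TDG, 2 of 8 tested rose and 1 fell with control sgRNA (median log2 fold change -0.43), and 2 rose and 2 fell with Cd4 sgRNA (median -0.59), both against wild type. Kdm2b, a CXXC histone demethylase that binds unmethylated CpG, rose by 0.35 (SE 0.0871, adjusted p = 0.031 by edgeR) and 0.33 (adjusted p = 0.045). Hmces, which shields abasic sites, had 110.4 ± 0.345 CPM in wild type, 50.5 ± 16.6 CPM in control sgRNA cells and 33.3 ± 5.2 CPM in Cd4 sgRNA cells, with log2 fold changes of -1.13 (adjusted p = 0.017) and -1.73 (adjusted p = 0.0082). Gadd45b, a stress-induced gene linked to demethylation, fell with Cd4 sgRNA, from 26.0 ± 1.35 to 13.0 ± 0.823 CPM (adjusted p = 0.042).

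Cxxc4, whose product binds TET2 and promotes its loss, went from 0 and 1 counts in the wild-type libraries to 65 and 92 in the control sgRNA and 24 and 28 in the Cd4 sgRNA libraries, and passed the test against wild type in both (adjusted p = 0.017 and 0.037 by edgeR). With 1 count in all in wild type, the ratio of summed counts over summed library sizes was 55.5 with control sgRNA (95% exact counting interval 9.82 to 2210) and 45.8 with Cd4 sgRNA (7.87 to 1840). The intervals cover counting error only.

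Of 11 tested maintenance partners, 3 rose with control sgRNA (Uhrf2, a relative of UHRF1, with a log2 fold change of 0.99, Lig1, the ligase of the lagging strand, with 0.45, and Ehmt2, a histone H3 lysine methyltransferase, with 0.73) and 0 fell. With Cd4 sgRNA 2 rose, namely Hells, a chromatin remodeller needed for methylation of repeats, from 103.6 ± 0.812 to 212.9 ± 9.83 CPM (log2 fold change 1.04, adjusted p = 0.025 by edgeR), and Lig1 (0.57, adjusted p = 0.019). The median log2 fold changes of the list were 0.13 and 0.27. Among the methyl-CpG readers 0 of 7 rose and 2 fell in each comparison with wild type. Mbd2 fell with control sgRNA (log2 fold change -0.36, adjusted p = 0.042 by edgeR) and Zbtb38 with Cd4 sgRNA (-0.62, adjusted p = 0.022).

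Base excision repair had 1 of 10 tested genes higher with control sgRNA, the glycosylase Nthl1, from 11.8 ± 1.36 to 19.2 ± 0.993 CPM (adjusted p = 0.013 by edgeR). With Cd4 sgRNA 0 rose and 1 fell, Neil1, another glycosylase of oxidised bases, from 153.7 ± 3.94 to 25.6 ± 3.36 CPM (log2 fold change -2.59, SE 0.402, adjusted p = 0.011). Of 9 tested genes around S-adenosylmethionine, the methyl donor, 1 rose (Ahcy, 0.34) and 2 fell (among them Shmt2, -0.51) with control sgRNA, and 2 rose (Mthfd1, 0.77, and Shmt1, 0.97) and 0 fell with Cd4 sgRNA, all as log2 fold changes. Of 10 genes around 2-oxoglutarate and ascorbate, 1 rose in both, Ogdh, which consumes 2-oxoglutarate in the citric acid cycle, from 336.1 ± 9.21 CPM to 568.4 ± 26.1 and 481.9 ± 3.68 CPM (adjusted p = 0.003 and 0.012 by edgeR).

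Dnmt1 and Uhrf1 are transcribed with the cell cycle, and 24 replication and cell cycle genes were read beside them. With control sgRNA 8 rose and 1 fell, and with Cd4 sgRNA 10 rose and 0 fell, at medians of 0.24 and 0.42. That made 37.5% and 41.7% of the list called, against 28.0% and 20.5% of all genes. Ccne1, the cyclin of entry into S phase, went from 21.2 ± 0.565 CPM to 34.2 ± 1.98 and 40.6 ± 2.29 CPM. Top2a, a topoisomerase of dividing cells, went from 539.1 ± 3.35 CPM to 947.2 ± 26.5 and 795.5 ± 50.6 CPM, and Mki67, a marker of dividing cells, from 1259 ± 86.9 CPM to 2429 ± 255 CPM with control sgRNA (log2 fold change 0.95, adjusted p = 0.0041). The Dnmt1 log2 fold changes, 0.49 and 0.33, and those of Uhrf1, 0.31 and 0.56, stood in the range of this list, and that of Dnmt3a, 1.01 and 1.11, above its 24 genes in both. Whether the cell cycle genes had a part in these values was not tested. In Cd4 sgRNA against control sgRNA cells, 0 genes of any of the 7 lists passed the edgeR test. Without control sgRNA replicate 2, 22 of the 24 rose and 1 fell with control sgRNA and 21 rose and 1 fell with Cd4 sgRNA, where 59.9% and 59.7% of all genes were called.

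**Figure D5:**
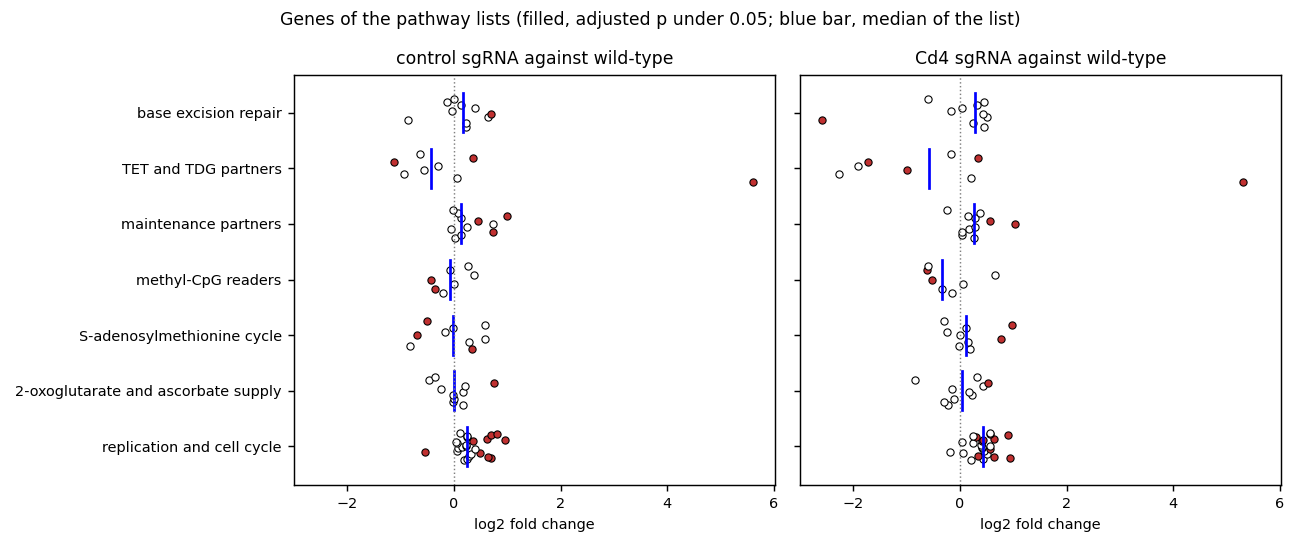
Log2 fold change (x axis) of every tested gene of the 7 lists (y axis) against wild type, with control sgRNA (left) and Cd4 sgRNA (right), filled where the adjusted p was under 0.05, and a blue bar at the median of each list. The point beyond 5 in both panels is Cxxc4, with 1 count in all in wild type, and the replication list lies mostly to the right of 0, with medians of 0.24 and 0.42.

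Over the 6 libraries the log2 CPM of Dnmt3a and Tet1, the 2 genes with the smallest p with control sgRNA, followed each other with a Pearson r of 0.940, and Tet3 ran the other way, with -0.917 to Tet1 and -0.902 to Dnmt3a. These are descriptions over 6 libraries in 3 groups, so they mostly repeat the distance between wild type and the TETact groups. Among all tested genes, the patterns most like that of Dnmt3a were those of Dck (r = 0.999), 4930579G24Rik (r = 0.999) and Vps52 (r = 0.999), and those most like that of Tet1 included Fbxw9 (r = 0.999) and Eif2ak4 (r = 0.997).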

How the data were processed

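Per the labels and the study's methods, the authors aligned 66-base paired reads to mm10 assigned them to Entrez genes by featureCounts with the RefSeq annotation built into Rsubread, and deposited raw whole-number counts per gene and sample. Strand use and the handling of reads shared between genes are not given in the sources used here. A table of the whole series was not used. Symbols came from RefSeq genes of GRCm38.p6. Genes without a symbol or with a duplicated symbol, mitochondrial genes, ribosomal RNA and genes of type other were removed, which took 5.01% to 13.9% of each library's counts, and filterByExpr left 12430 genes. The 10 genes and the lists were chosen with earlier results of these data known. The named list genes were, per list, comparison and direction, the 3 with the smallest p among those called. The values of some genes that this rule names are not reported here.

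Counts were fitted with edgeR 4.0.16 (TMM, glmQLFit and glmQLFTest, robust) in R 4.3.3, with a term for each group in one fit of the 6 libraries and two-sided tests at an adjusted p of 0.05. The plan did not name the quasi-likelihood method of edgeR. The legacy method with trended or with common dispersion was run first and its values were seen, and the newer method (legacy=FALSE) was then taken to follow earlier processing of the same counts. The legacy fits are kept as alternatives. Standard errors are the log2 fold change over the root of F. CPM used TMM-scaled library sizes and TPM the deposited gene lengths. Alternatives included limma 3.58.1 (voomLmFit) and DESeq2 1.42.0. The scripts were tested on simulated data. The study's methods describe the replicates as independently repeated samples.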

Additional observations from a re-analysis of the deposited data

How the results depend on the processing

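Over all alternatives, 475 of the values for single genes kept their direction and their side of the threshold, 26 lost a call, 41 gained one and 4 changed sign. The 2 legacy quasi-likelihood fits, chosen after seeing the data, called 5, 0 and 2 of the 10 genes in control sgRNA against wild-type, Cd4 sgRNA against control sgRNA and Cd4 sgRNA against wild-type cells, as in the report, with 3648, 9 and 2871 genes called in all with trended dispersion and 3599, 13 and 2749 with common dispersion. Fits on only the groups compared called 2 and 8 of the 10 in the comparisons with wild type, and 1569, 1 and 7451 of all genes. DESeq2 called 1 of the 10 in Cd4 sgRNA against control sgRNA cells (1427 of all genes, with an adjusted p of NA for 1205). In Cd4 sgRNA against wild-type cells DESeq2 called 5 of the 10, and scaling by library size only called 4. The calls over all genes in these last fits are not given here, so the counts are not read as a result about the 10. In Cd4 sgRNA against control sgRNA cells, 18 of all genes were called without a filter on low counts and 14 with counts thinned to the shallowest library.

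Most calls depended on which libraries were in the fit, also on libraries outside the comparison. Tet2 in control sgRNA against wild-type cells lost its call without Cd4 sgRNA replicate 1, with a log2 fold change of 1.157 against 1.155. With each library left out in turn, 0 to 10 of the 10 genes were called with control sgRNA against wild type, 0 to 6 with Cd4 sgRNA against control sgRNA and 0 to 8 with Cd4 sgRNA against wild type, and 116 to 8217, 1 to 7835 and 81 to 7588 of all genes. In each comparison the counts of the 10 were highest without a control sgRNA library, and those of all genes rose there too. The group with 1 library left is assumed to vary like the others, so the counts rose where a control sgRNA library was left out and fell where another was. The log2 fold change of Tet3 ranged from -0.0178 to 0.13, that of Dnmt3b from -0.0028 to 0.43 and that of Tdg from -0.12 to 0.24 in Cd4 sgRNA against control sgRNA cells.

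Correlations of the deviations between same-numbered libraries were -0.0322, 0.0201 and -0.137. With 2 replicates per group, these values cannot decide whether the replicate numbers pair the samples. With the replicate number as a block, 4, 0 and 3 of the 10 genes and 2970, 7 and 2037 of all genes were called in the order above, with Tet2 losing its call in the first comparison and Uhrf1 gaining one in the last. With the numbers of the Cd4 sgRNA libraries crossed, 0 of the 10 and 12 of all genes were called against control sgRNA cells. Tet1 had as few as 14 counts and Dnmt3l as few as 6 in a library. With counts thinned to the shallowest library, Tet1 kept its call in both comparisons with wild type.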
